A study of Arabidopsis thaliana with 12 samples.

Results

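Ribose enters primary metabolism through phosphorylation. Ribokinase, a member of the pfkB family of sugar and nucleoside kinases, converts ribose to ribose 5-phosphate, and ribose-phosphate pyrophosphokinase (PRPP synthetase) joins this sugar phosphate to a pyrophosphate group of ATP to make phosphoribosyl pyrophosphate, the precursor of purine and pyrimidine nucleotides, NAD, histidine and tryptophan. Other pfkB kinases act on fructose or adenosine. The genes described here are AT1G17160, annotated as the ribokinase gene, AT2G35390, annotated as a PRPP synthetase gene, and AT1G06730, annotated as a pfkB-like carbohydrate kinase for which no substrate is given here.

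These 3 genes were taken as members where a feature of the deposited table was annotated with that gene alone. This gave 3 features, 1 per gene, of 3439 in all, of which 692 have 1 gene, 870 have several genes and 1877 are not named. None of the 3 genes was also listed on a feature with several genes. The genes were chosen by the size of their log2 difference between recovery and light-adapted arrays in earlier work on the same values, where AT1G17160 and AT2G35390 stood among the largest rises and AT1G06730 among the largest falls, so the differences below are a description and carry no test. All 3 features passed the filter on low values, with intensities above 0 on all 12 arrays.

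The study compared wild-type Arabidopsis thaliana of the Columbia 0 ecotype under a pair of conditions. In the recovery group (6 arrays), plants spent 1 h in darkness and were put back into light for 2 h by the titles or 1 h by the source names, a conflict that the labels do not settle. The light-adapted group (6 arrays) is the control. The labels name no tissue and no plant age, and do not say whether the 6 arrays of a group came from separate plants, so the spread between them, and every p-value, may reflect technical variation. No array stands for the end of darkness, so what darkness did cannot be told apart from what the renewed light did. Expression was measured as 1 intensity per feature and array, from 0 to a ceiling of 100, taken here as linear. All 12 arrays had this maximum of 100, and what set it is not given in the sources used here. Ratios of deposited values between arrays may depend on it. The 5 leaf genes fixed as a check of the material had 1 member on a feature with 1 gene, LHB1B2 of the light-harvesting antenna, which was above 0 on all 12 arrays, and the 9 marker genes of root, flower and seed had 0. LHB1B2 itself fell by 1.28 ± 0.16 after quantile normalization (log2, SE, limma adjusted p = 5.62e-05) and was lower in recovery in 6 of 6 pairs of deposited values, but stood at 0.16 after median centring. What part its change has in the values below was not tested.

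Array medians ran from 0.0358 to 0.0400 in recovery and from 0.0710 to 0.103 in light-adapted plants, so the size of a difference depends on how arrays are scaled. Light-adapted arrays 5 and 6 had the lowest medians of their group, 0.0710 and 0.0760, against 0.0972 to 0.103 on arrays 1 to 4. Their share of zeros was 22.2% and 21.4%, against 17.9% to 20.1%. The median log2 difference over all 2364 features tested was -0.82 on the deposited scale, -0.038 after quantile normalization and 0.12 after median centring. Arrays 1 and 2, 3 and 4, and 5 and 6 of a group are called sets below, a division chosen after the values were seen, and the labels do not say what a set is.

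AT1G17160, the ribokinase gene, was higher in recovery by a nearly constant factor. Its deposited intensity on recovery arrays 1 to 6 was 1.77, 1.87, 2.11, 2.16, 2.23 and 2.52, against 0.324, 0.315, 0.434, 0.405, 0.412 and 0.500 on light-adapted arrays 1 to 6. The groups did not overlap, and the lowest recovery array lay far above the highest light-adapted one. Of the 2364 features tested, 6.85% had all recovery arrays above all light-adapted arrays. The mean was 2.11 ± 0.269 in recovery and 0.398 ± 0.0697 in light-adapted plants (SD, n = 6 each).

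Array by array, the ribokinase gene was 5.46, 5.93, 4.86, 5.33, 5.41 and 5.04 times as bright in recovery as on the light-adapted array of the same number. The ratio stayed between 4.86 and 5.93, although the level itself varied 1.43-fold among recovery arrays and 1.59-fold among light-adapted arrays. Both groups had their highest value on array 6 and their lowest values on arrays 1 and 2, so the same-numbered arrays moved together. On the deposited scale the SD of the log2 difference over the 6 pairs was 0.099, and 3 of the 1429 features above 0 on all 12 arrays had a smaller one, where the median feature had 0.64. This closeness was less marked after quantile normalization, with an SD of 0.21 and 78 of the 1429 features below it. The 1429 features were not matched for brightness, and the ribokinase gene averaged 56.4 times the array median in recovery and 4.51 times in light-adapted plants. Whether features of like brightness were as steady was not tested. The log2 difference was 2.41 ± 0.20 on the deposited scale and 2.60 ± 0.24 after quantile normalization (SE of the fit across all features). Median centring gave 3.35 ± 0.21. With the mean of each set of arrays, 3 against 3, the SE of the quantile-normalized difference was 0.38.

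**Figure D1:**
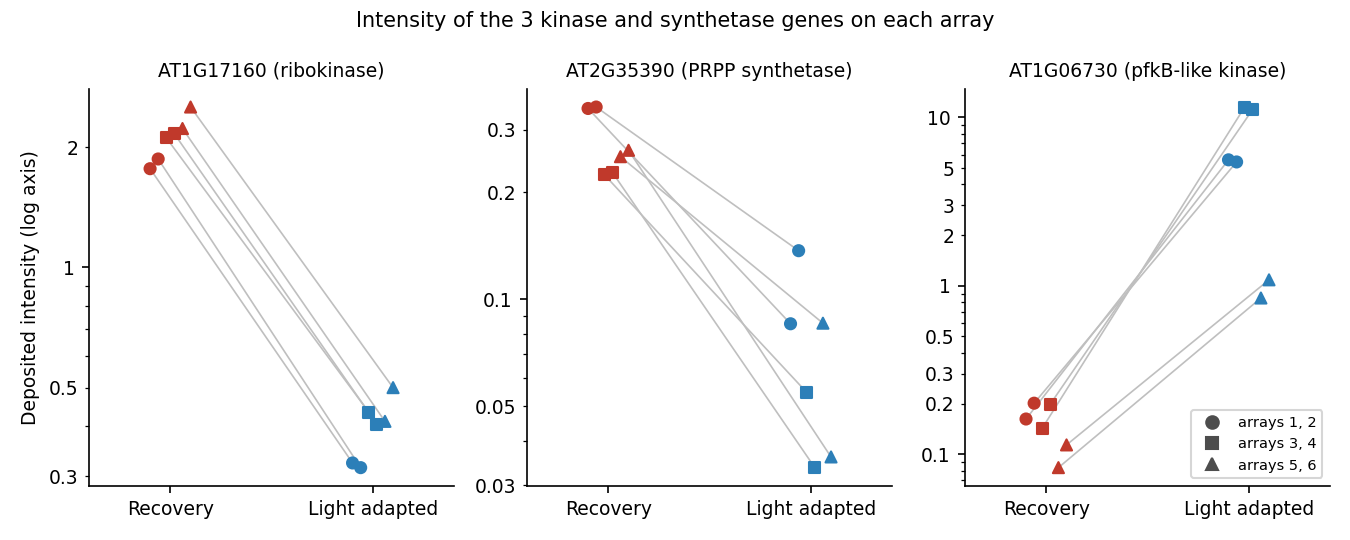
Deposited intensity (log axis, a separate range in each panel) of the 3 genes on 6 recovery arrays (left) and 6 light-adapted arrays (right). Grey lines join arrays of the same number and marker shapes show arrays 1 and 2, 3 and 4, and 5 and 6. The lines of AT1G17160 run nearly parallel, those of AT2G35390 fan out, and the light-adapted arrays 5 and 6 of AT1G06730, at 0.846 and 1.08, lie well below the other 4.

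AT2G35390, the PRPP synthetase gene, was also higher in recovery, from a dim level in the light-adapted plants. Recovery arrays 1 to 6 had 0.344, 0.347, 0.224, 0.228, 0.252 and 0.262, against 0.0854, 0.137, 0.0547, 0.0336, 0.0857 and 0.0360 in light-adapted plants. The groups did not overlap, with the lowest recovery array at 0.224 and the highest light-adapted array at 0.137. The same held, with recovery higher, for 6.85% of the 2364 features tested. The mean was 0.276 ± 0.0557 in recovery and 0.0721 ± 0.0391 in light-adapted plants (SD, n = 6 each). Seen against the median of its own array, the gene stood at 7.41 ± 1.54 times that median in recovery and at 0.793 ± 0.416 times in light-adapted plants.

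The spread of the PRPP synthetase gene lay mainly in the light-adapted arrays, whose highest value was 4.08 times the lowest, while the recovery arrays differed by 1.55-fold. The recovery-over-light-adapted ratio in same-numbered pairs was 4.03, 2.54, 4.10, 6.77, 2.94 and 7.28. The 2 smallest ratios belong to pairs 2 and 5, where the light-adapted value was highest, and the 2 largest to pairs 4 and 6, where it was lowest. This link is partly arithmetic, since the light-adapted value is the divisor. Pairs 1 and 5 had nearly the same light-adapted value, 0.0854 and 0.0857, and differed in recovery, at 0.344 and 0.252. Arrays of 1 set differed from each other here, for example 0.0857 and 0.0360 on light-adapted arrays 5 and 6, so the size of this difference rests on values near the bottom of the scale. The log2 difference was 2.85 ± 0.36 after quantile normalization, 2.09 ± 0.35 for deposited values and 3.03 ± 0.38 after median centring (SE). With the mean of each set of arrays, 3 against 3, the SE of the quantile-normalized difference was 0.46.

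AT1G06730, the pfkB-like kinase gene, went the other way and was lower in recovery on every array. Recovery arrays 1 to 6 had 0.162, 0.201, 0.143, 0.199, 0.0832 and 0.114, against 5.60, 5.44, 11.5, 11.2, 0.846 and 1.08 in light-adapted plants. The groups did not overlap, as was the case with recovery lower for 21.1% of the 2364 features. The mean was 0.150 ± 0.0467 in recovery and 5.95 ± 4.66 in light-adapted plants (SD, n = 6 each).

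The light-adapted level of the pfkB-like kinase gene differed by set of arrays far more than by array within a set. Set means in recovery were 0.181 for arrays 1 and 2, 0.171 for arrays 3 and 4 and 0.0984 for arrays 5 and 6, a 1.84-fold range. In light-adapted plants they were 5.52, 11.4 and 0.966 in the same order, an 11.8-fold range. The light-adapted level was accordingly 30.4, 66.6 and 9.82 times the recovery level in the 3 sets. The gene was therefore lower in recovery in each set, by a factor that varied 6.78-fold between sets.

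After quantile normalization the SD of the pfkB-like kinase gene was 0.37 in recovery and 1.61 in light-adapted plants (log2, n = 6 each). Of the 1429 features above 0 on all 12 arrays, 52.3% had a larger SD in recovery and 4.83% in light-adapted plants. The median feature had an SD of 0.39 in recovery and 0.55 in light-adapted plants. The log2 difference was -4.47 ± 0.63 after quantile normalization, -4.77 ± 0.65 for deposited values and -3.84 ± 0.58 after median centring (SE). These SEs treat the 6 arrays of a group as independent. With the mean of each set of arrays, 3 against 3, the SE of the quantile-normalized difference was 0.88. Leaving out a set of arrays in both groups, chosen after seeing the data, moved the quantile-normalized value to -3.83 without arrays 3 and 4 and to -5.34 without arrays 5 and 6.

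**Figure D2:**
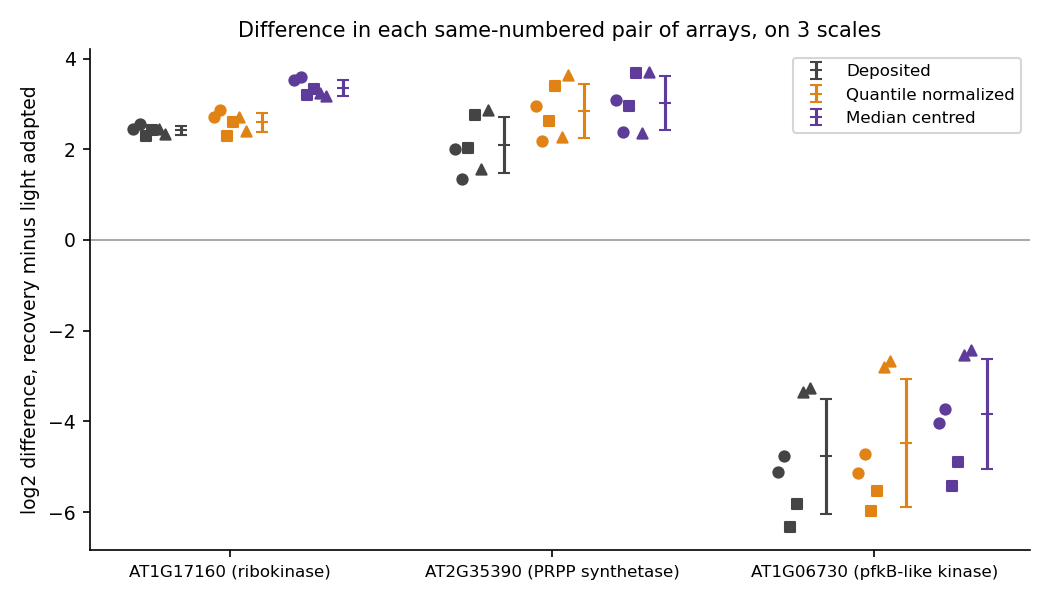
The log2 difference, recovery minus light adapted (vertical axis), in each of the 6 same-numbered pairs of arrays, for the 3 genes on the deposited, quantile-normalized and median-centred scales. Bars show the mean ± SD of the 6 pairs and marker shapes show the sets. All 6 pairs lie above 0 for AT1G17160 and AT2G35390 and below 0 for AT1G06730 on each scale, and the pairs 5 and 6 of AT1G06730 are nearest to 0.

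The direction in same-numbered pairs did not depend on the scale for any of these genes. On the deposited, quantile-normalized and median-centred values alike, AT1G17160 and AT2G35390 were higher in recovery in 6 of 6 pairs and AT1G06730 was lower in 6 of 6 pairs. Among the 452 tested features with 1 gene, AT2G35390 had the 9th largest and AT1G17160 the 12th largest difference upward, and AT1G06730 the 5th largest downward. Among all 2364 features tested, AT2G35390 ranked 55th and AT1G17160 72nd upward, and AT1G06730 15th downward. These ranks restate what the genes were chosen for. The share of all features called in the same fit was 18.5% higher and 18.4% lower in recovery, 36.9% in all (limma, adjusted p under 0.05).

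**Figure D3:**
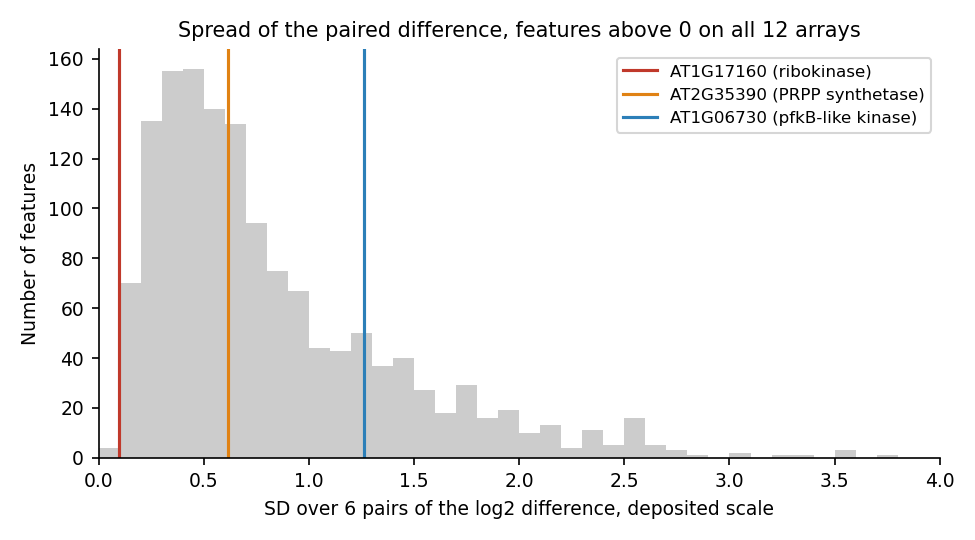
Histogram of the SD, over the 6 same-numbered pairs, of the log2 difference on the deposited scale, for the 1429 features above 0 on all 12 arrays, with vertical lines at the 3 genes. AT1G17160 sits at the left edge at 0.099, and AT2G35390 at 0.62 is close to the median feature at 0.64. AT1G06730 at 1.26 lies to the right, above 80.3% of the features.

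A ratio of 2 genes on the same array does not change with any scale factor of that array, so changes in such ratios were also taken. The ratio of AT1G17160 over AT1G06730 was higher in recovery by 7.18 ± 1.25 on the log2 scale of the deposited values (SD, n = 6 pairs) and lay between 5.59 and 8.62 in the pairs. That of AT2G35390 over AT1G06730 was higher by 6.87 ± 1.43, between 4.90 and 8.57. The ribokinase and PRPP synthetase genes thus shifted against the pfkB-like kinase gene in 6 of 6 pairs. These shifts restate the choice of the genes, as large rises and a large fall in the same values.

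Between the ribokinase and PRPP synthetase genes no steady shift was seen. The log2 ratio of AT1G17160 over AT2G35390 differed by 0.32 ± 0.68 between recovery and light-adapted arrays (SD, n = 6 pairs), was above 0 in 4 of 6 pairs and ran from -0.53 to 1.23. After quantile normalization its mean turned to -0.25, above 0 in 2 of 6 pairs. Beyond the group difference, the deviations of the 3 genes from their group means gave little common pattern for AT2G35390, with r = 0.035 against AT1G17160 and r = -0.073 against AT1G06730. For AT1G17160 against AT1G06730 r was -0.71. These correlations are descriptive, over 12 arrays of quantile-normalized values that share their hybridization and fall into sets.

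The genes with the nearest patterns over the 12 arrays were sought among the other 257 features with 1 gene above 0 throughout, by the root mean square difference of quantile-normalized log2 values after each feature's mean was removed. For the ribokinase gene they were THIC, which acts in thiamine synthesis, at 0.41, AT4G13550 at 0.43 and the calmodulin-like gene CML41 at 0.45, where the median feature was at 1.49. Their deviations from the group means had r = -0.37, 0.71 and 0.11 against those of the ribokinase gene, in that order. For the PRPP synthetase gene they were AT4G04370 at 0.54, CML41 at 0.57 and AT4G32060 at 0.57, against a median of 1.63, with r = 0.62, 0.38 and 0.67 for the deviations. For the pfkB-like kinase gene they were AT1G12800 at 0.73, the Aux/IAA gene IAA31 at 1.03 and AT5G26850 at 1.14, against a median of 2.57. The measure includes the group difference for which the members were chosen, so nearness partly restates a like difference. In the order named, quantile-normalized log2 differences were 2.50, 3.31 and 2.54 for the neighbours of the ribokinase gene. They were 2.53, 2.54 and 2.13 for those of the PRPP synthetase gene, and -3.30, -4.59 and -4.03 for those of the pfkB-like kinase gene.

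AT1G12800, described further after its values were seen, also varied by set of arrays. Its deposited intensity on recovery arrays 1 to 6 was 0.102, 0.108, 0.0917, 0.107, 0.0579 and 0.0779, against 1.98, 1.89, 1.97, 2.30, 0.408 and 0.515 in light-adapted plants. As for AT1G06730, light-adapted arrays 5 and 6 were lowest, but arrays 1 to 4 lay close together, with array 3 just below array 1. The deviations of AT1G12800 and AT1G06730 from their group means had r = 0.96 over 12 arrays, against 0.26 for IAA31 and 0.22 for AT5G26850. The measure of nearness includes these deviations, so none of these r values is independent of how the neighbours were picked. The light-adapted order of AT1G06730, with both arrays of set 3 and 4 highest and both of set 5 and 6 lowest after quantile normalization, was found in 51 of the 1429 features above 0 on all arrays (3.57%).

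**Figure D4:**
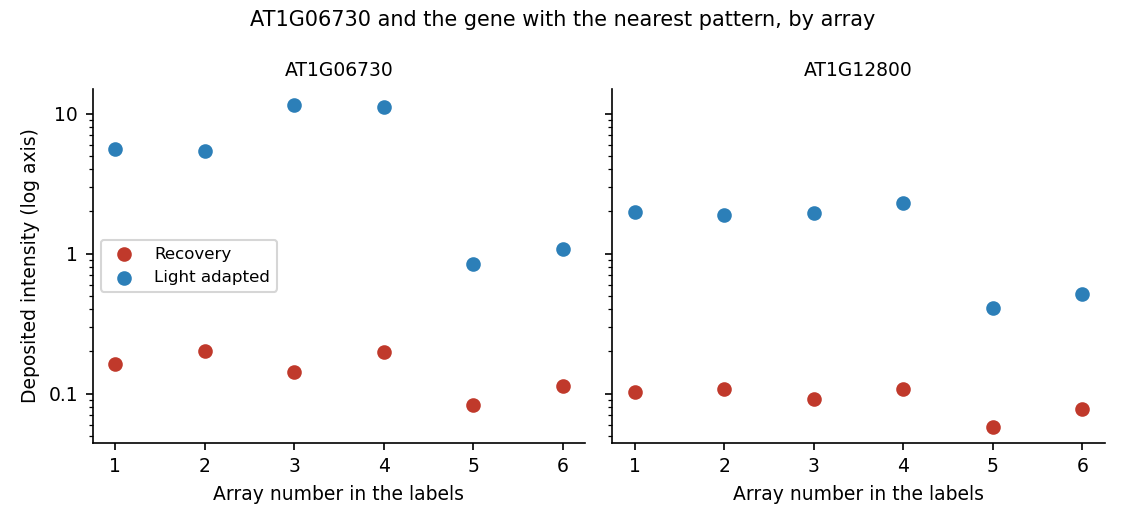
Deposited intensity (log axis) of AT1G06730 (left) and AT1G12800 (right) against the array number, for recovery and light-adapted arrays. In both genes the recovery arrays lie below the light-adapted ones, and light-adapted arrays 5 and 6 are the lowest of their group, at 0.846 and 1.08 for AT1G06730 and 0.408 and 0.515 for AT1G12800.

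Other genes of ribose and sugar phosphorylation and of phosphoribosyl pyrophosphate use were taken from fixed lists of PRPP synthetases, pfkB kinases, the pentose phosphate pathway, other sugar kinases, and enzymes that consume the product. Of 89 such genes beside the 3 members, 6 had a feature with 1 gene and 3 of those could be tested. Of these, 2 rose and 1 fell, with a median log2 difference of 1.70, where 36.9% of all features tested were called and the median over all was -0.038. So few tested genes do not describe the pathway as a whole.

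AT2G44530, the other PRPP synthetase gene measured, rose by 1.70 ± 0.32 (SE, limma adjusted p = 0.00133). Its deposited intensity on recovery arrays 1 to 6 was 0.236, 0.228, 0.322, 0.101, 0.316 and 0.295, against 0.0926, 0.127, 0.176, 0.117, 0.163 and 0.0983 in light-adapted plants. Recovery array 4 lay within the light-adapted range, and 5 of 6 pairs were higher in recovery. On the deposited scale the rise was 0.90 ± 0.31 (limma adjusted p = 0.0337), and there the call was lost without arrays 1 and 2 of both groups (0.80, limma adjusted p = 0.206) or without arrays 5 and 6 (0.71, limma adjusted p = 0.183). Thus 2 of the 5 PRPP synthetase genes of the list were measured, AT2G35390 being 1 of them by choice.

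AT1G50390, a further pfkB-like gene, rose by 2.16 ± 0.41 (SE, limma adjusted p = 0.00142), with recovery above light adapted in 6 of 6 pairs. It had 0.641, 0.594, 0.774, 0.684, 0.634 and 0.666 on recovery arrays 1 to 6, against 0.118, 0.0844, 0.315, 0.327, 0.306 and 0.304 in light-adapted plants. The groups did not overlap, as was the case with recovery higher for 6.85% of the 2364 features tested. Light-adapted arrays 1 and 2 were lower than the other 4. With the mean of each set of arrays, 3 against 3, it was no longer called (limma adjusted p = 0.0535). The 3 pfkB genes measured, of 21 in the list, held both directions, with AT1G17160 and AT1G50390 higher and AT1G06730 lower in recovery. Of them, AT1G17160 and AT1G06730 were chosen for a large rise and a large fall, so both directions were set beforehand. A further 2 genes of that list lie on features with several genes and were not used.

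PRK, which encodes the Calvin-Benson enzyme that phosphorylates ribulose 5-phosphate, was the only measured gene of 24 other sugar kinases and, like LHB1B2, fell in the quantile-normalized fit, by 1.63 ± 0.17 (SE, limma adjusted p = 1.86e-05). Its deposited intensity averaged 1.68 ± 0.508 in recovery and 4.60 ± 0.831 in light-adapted plants (SD, n = 6 each), and it was lower in recovery in 6 of 6 pairs. After median centring it was at -0.57 and no longer called (limma adjusted p = 0.0637).

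**Figure D5:**
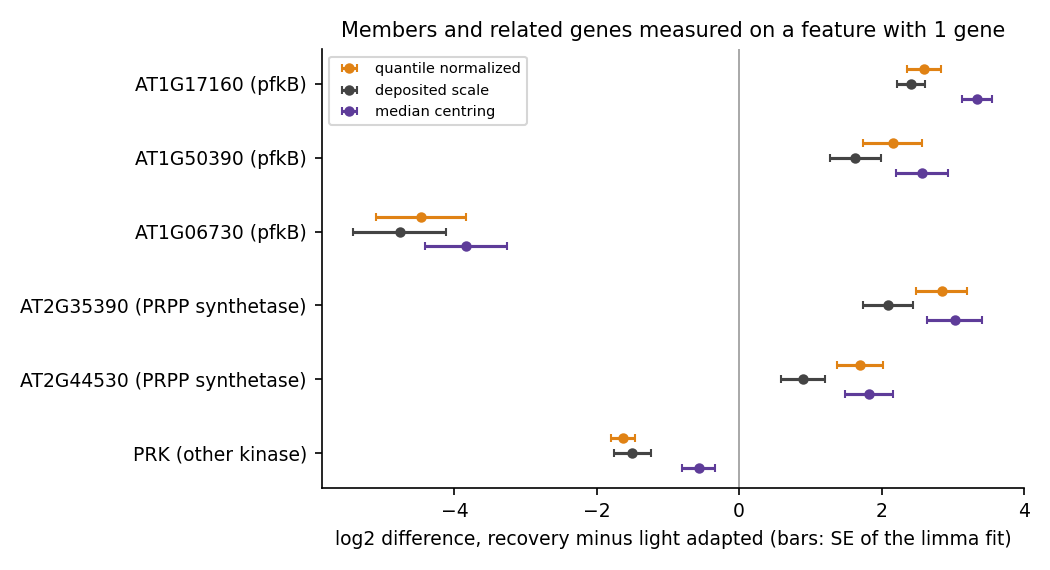
The log2 difference, recovery minus light adapted (horizontal axis), of the 3 genes and of the 3 related genes that could be tested, with the SE of the limma fit, on the quantile-normalized, deposited and median-centred scales. AT1G06730 and PRK lie below 0 and the other 4 above 0 on each scale, and PRK is near 0 only after median centring, at -0.57.

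The remaining 3 listed genes with a feature of their own were too close to 0 to be tested. AT5G44520 and AT1G12230, both of the pentose phosphate list, were above 0 on 2 and 1 recovery arrays and on 1 and 0 light-adapted arrays. UPP, a uracil phosphoribosyltransferase, was above 0 on 3 arrays in each group. Whether transcripts of related genes add to the signal of any of these features was not tested.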

How the data were processed

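Expression was measured on 12 arrays with 1 channel each, 6 recovery and 6 light adapted, grouped by the sample titles. The authors deposited 1 table of intensity values from 0 to 100; what scale, centring, normalization and scanner lie behind it is not given in the sources used here. Genes were named from the platform annotation, updated through gene identifiers to TAIR10.1; no coordinates or sequences are used.

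Zeros were set to missing, intensities taken to log2 and quantile normalized, and features with at least 4 measured values per group tested (2364) in limma 3.58.1 under R 4.3.3, two-sided, with Benjamini-Hochberg adjustment over all of them and calls at an adjusted p under 0.05. The number of arrays limits the precision. The members and lists were chosen with earlier results of these data known. Named genes were the members, the tested list genes and the 3 features nearest in pattern to each member; AT5G44520, AT1G12230 and UPP, listed but not tested, are named outside this rule, after their values were seen.

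Same-numbered arrays were checked for pairing: their deviations from group means correlated with r between 0.11 and 0.19 in the 6 pairs across 1429 features. These correlations are weak, but each of the 12 arrays correlated best with the array of its own number in the other group. The numbers were therefore taken to pair them, on the evidence of the values only. Alternatives covered scaling, zeros, filters, the replicate block, set means and each array left out. Figures used matplotlib 3.10.9 under Python 3.11.15.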

Additional observations from a re-analysis of the deposited data

Results flagged for a closer look

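In groups of 6 arrays the highest value stood apart from the others in 2 cases, both at intensities near 0. AT5G44520 had 0.00993 on light-adapted array 2, with the other 5 light-adapted arrays at 0. AT1G12230 had 0.00331 on recovery array 1, with the other 5 recovery arrays at 0. The rule flags about 1 in 20 groups by chance where values are normally distributed, and 20 groups of arrays were examined. With 5 arrays at 0, any value above 0 on the remaining array is flagged, so that rate does not hold for these 2 cases. The light-adapted arrays of AT1G12230 were all at 0, with no spread to examine. No array stood apart in this way for AT1G17160, AT2G35390 or AT1G06730.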

How the results depend on the processing

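The number of called features was 873 in all, 405 with the mean of each set of arrays, 801 to 865 with 1 array left out, and 832 and 1131 with the replicate number as a block on the quantile-normalized and the deposited scale. The difference of AT1G17160 moved to 3.35 with median centring. That of AT2G35390 moved to 2.09 on the deposited scale, with or without the replicate block, and to 1.94 and 2.04 there without arrays 3 and 4 or 5 and 6. AT1G06730 stayed within its replicate SD in all 26 alternatives, but that SD was wide, pooled from 0.37 in recovery and 1.61 in light-adapted plants (log2). Its difference ran from -5.51 (deposited scale, without arrays 5 and 6) to -3.83 (quantile normalized, without arrays 3 and 4). Staying within this SD therefore does not mean a steadier size than that of the other members. With 1 array left out, the 3 genes ran from 2.51 to 2.73, 2.63 to 3.05 and -4.91 to -4.22. AT2G44530 lost its call on the deposited scale without arrays 1 and 2 (0.80) or 5 and 6 (0.71), AT1G50390 with set means (2.16), and PRK with median centring (-0.57). LHB1B2, at -1.28, lost its call on the deposited scale (-0.77, and -0.64 and -0.71 without arrays 1 and 2 or 5 and 6), kept it there with the replicate block (-0.77, limma adjusted p = 0.0161) and without arrays 3 and 4 (-0.97, limma adjusted p = 0.0272), and turned to 0.16 with median centring. The log2 ratio of AT1G17160 over AT2G35390 turned from 0.32 to -0.25 with quantile normalization. The causes were not tested. Relative to the unblocked fit on quantile-normalized values, the replicate block ended no call among the list genes tested, on either scale.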
